A study of Mus musculus with 2 samples.

Results

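The Kcnq1 domain is an imprinted region of distal mouse chromosome 7. Its 10 genes were taken from the deposited table by gene symbol, whatever status the entry had, out of 29126 entries in all, of which 20906 carried a symbol. All 10 were found, each in 1 entry. In the order of the locus column they are Ascl2, Cd81, Tssc4, Kcnq1 with Kcnq1ot1, Cdkn1c, Slc22a18, Phlda2, Nap1l4 and Osbpl5, and they span 775.1 kb of the mm9 genome, from 150152727 to 150927868. The mRNA of mouse embryonic fibroblasts (MEFs) was sequenced with its strand kept, 1 library being Dnmt1+/+ and 1 Dnmt1-/-. Dnmt1 is the enzyme that copies DNA methylation onto new strands, and both of its copies are a hypomorphic allele in the cells called Dnmt1-/-. Both lines, controls included, carry in addition a p53 null background. The strain is labelled as unknown, and whether a line is a single clone is not stated in the sources used here. With 1 library for each genotype, genotype and cell line cannot be told apart, the differences below lack a replicate check, and neither a test nor a p-value is given.

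Imprinted genes are expressed from one parental chromosome. In the Kcnq1 domain the control element is the promoter of Kcnq1ot1, a long noncoding RNA that is read antisense to Kcnq1 from within one of its introns. That promoter is methylated on the maternal chromosome and free of methylation on the paternal one, where Kcnq1ot1 is made and silences its neighbours in cis. Kcnq1, Cdkn1c, Slc22a18 and Phlda2, called the inner genes here, are known to be imprinted in embryo and placenta, whereas imprinting of the outer genes Ascl2, Cd81, Tssc4, Nap1l4 and Osbpl5 is known mainly from the placenta. Where the maternal methylation is lost, as in embryos that lack Dnmt1, Kcnq1ot1 can be made from both chromosomes. The values below add up both chromosomes and do not show which parental copy was read.

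The promoters of Kcnq1ot1, Phlda2 and Cd81 are shown because they stand for the 3 kinds of gene in the domain, namely the noncoding RNA, an inner gene listed at 0 in Dnmt1+/+ MEFs, and an outer gene with a high level in both libraries. Each run holds 250 bases before and 50 bases after a start site from RefSeq (table of build GRCm38.p6), and its position in mm9 was found by an exact and single match. Capitals mark CpG dinucleotides, the sites at which DNA methylation is placed.
Kcnq1ot1, chr7:150482403-150482702, minus strand: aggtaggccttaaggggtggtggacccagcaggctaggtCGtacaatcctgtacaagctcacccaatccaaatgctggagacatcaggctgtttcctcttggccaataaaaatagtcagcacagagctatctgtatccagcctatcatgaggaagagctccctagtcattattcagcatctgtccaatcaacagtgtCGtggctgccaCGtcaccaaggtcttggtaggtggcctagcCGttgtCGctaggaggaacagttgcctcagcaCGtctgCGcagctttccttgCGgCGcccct
Phlda2, chr7:150688380-150688679, minus strand: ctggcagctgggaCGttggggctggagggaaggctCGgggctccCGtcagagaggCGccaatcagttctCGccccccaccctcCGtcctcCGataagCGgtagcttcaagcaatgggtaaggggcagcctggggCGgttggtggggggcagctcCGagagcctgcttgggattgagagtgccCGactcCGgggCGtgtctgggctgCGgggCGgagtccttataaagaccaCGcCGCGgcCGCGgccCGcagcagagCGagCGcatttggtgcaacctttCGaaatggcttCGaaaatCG
Cd81, chr7:150238405-150238704, plus strand: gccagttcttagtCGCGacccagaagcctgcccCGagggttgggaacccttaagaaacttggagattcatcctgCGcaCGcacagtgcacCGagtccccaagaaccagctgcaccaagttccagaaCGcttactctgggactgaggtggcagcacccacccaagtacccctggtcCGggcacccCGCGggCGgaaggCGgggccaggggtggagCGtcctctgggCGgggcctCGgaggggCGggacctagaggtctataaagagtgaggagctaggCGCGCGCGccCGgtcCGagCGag

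The start site of Kcnq1ot1, at 150482452, lies in intron 11 of the 16-exon Kcnq1 transcript, an intron of 97.3 kb from 150447282 to 150544614. Its promoter had 9 CpG in 300 bases, more than 54.2% of the 32841 promoters in the table. The window ends 50 bases after the start site, and CpG further downstream were not counted. The count therefore does not give the CpG content of the whole methylated control element. The promoters of Phlda2 (26 CpG) and of Ascl2, Cd81 and Tssc4 (23 each) were richer in CpG, and that of Slc22a18 had 2. RefSeq gives 3 start sites for Osbpl5, with 16, 1 and 21 CpG, and promoters for 7 of the 10 genes were in the table, those of Kcnq1, Cdkn1c and Nap1l4 being the others. The letters CCAAT, searched on both strands with no overlap between matches, occurred 3 times before the start site of Kcnq1ot1, at -188, -148 and -67 counted from the start site as 0. They were present at least once in 37.4% of all promoters and at least 3 times in 3.37%, and Ascl2 also had 3. CpG content did not follow RNA level in the domain, since Phlda2 and Ascl2, which were near 0 in both libraries, had as many CpG as Cd81 and Tssc4 or more.

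**Figure D1:**
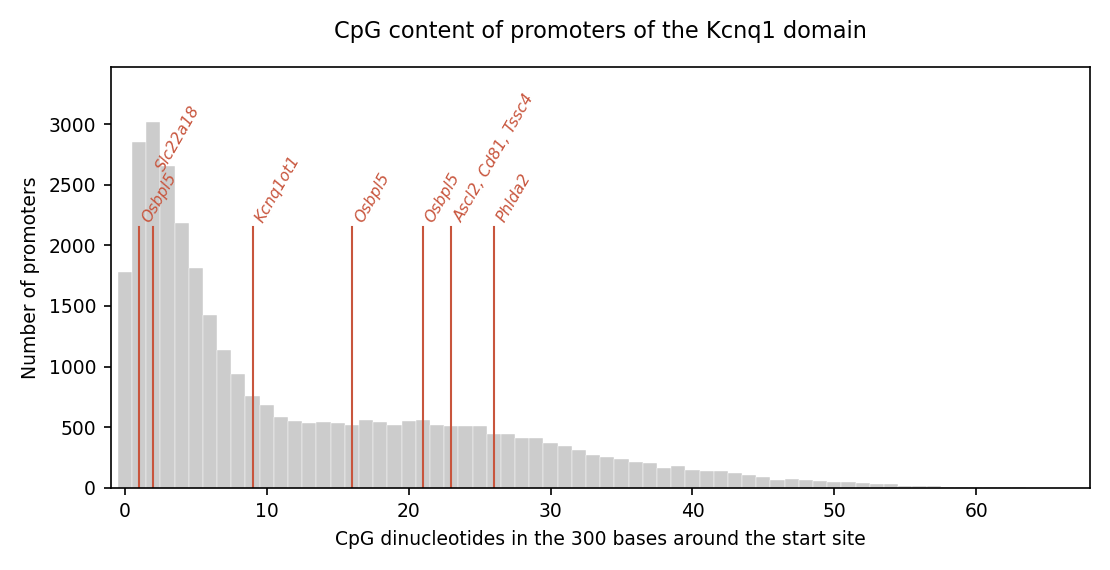
CpG dinucleotides in the 300 bases around the start site (horizontal axis) against the number of RefSeq promoters with that content (vertical axis, grey bars); red lines mark the 9 promoters of 7 genes of the Kcnq1 domain. Kcnq1ot1, with 9 CpG in this window, lies near the median of 7, below Ascl2, Cd81 and Tssc4 at 23 and Phlda2 at 26. Sequence beyond the window was not counted.

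The noncoding RNA came to 0.217 RPKM in Dnmt1+/+ and 0.0687 RPKM in Dnmt1-/- MEFs. RPKM is a read number normalised to the length of the transcript and to the mapped reads of the library. Kcnq1ot1 (entry XLOC_024139, status OK) was thus low in both libraries and 3.16-fold lower in Dnmt1-/-. On the log2(RPKM + 0.1) scale, which is used for all changes here and understates those of low genes, the change was -0.91. Of the 14865 entries with status OK and a symbol, 19.3% had a lower RPKM than Kcnq1ot1 in Dnmt1+/+ and 12.4% in Dnmt1-/-. Counting error cannot be set on a value of this size from RPKM alone, and the size of the change depended on the pseudocount. Its entry shares the locus of Kcnq1, 150293159 to 150612947, and no entry without a gene symbol was listed inside that locus in either library. How reads were divided between Kcnq1 and the antisense Kcnq1ot1 is not given in the sources used here. How well a library of mRNA samples this long noncoding RNA was not tested, so a low value here need not mean that little of it is made.

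Among other imprinted noncoding RNAs, levels differed widely. Airn, the antisense RNA that silences around Igf2r, was at 2.09 RPKM in Dnmt1+/+ and 3.81 in Dnmt1-/- MEFs. H19, which lies before Ascl2 on the same chromosome, went from a listed 0 to 24.4 RPKM, and Meg3 had 18.2 and 2.04 RPKM. Kcnq1ot1 was lower than each of these 3 in Dnmt1-/- MEFs. Its direction was that of Meg3 and not that of H19 or Airn. Nespas had status FAIL and was listed at 0 in both libraries, as genes with a failed estimate are. Rian went from 15.0 to 1.99 RPKM, also the direction of Kcnq1ot1.

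The 4 inner genes were all listed at 0 in Dnmt1+/+ and all above 0 in Dnmt1-/- MEFs, at levels that stayed under 1 RPKM. Cdkn1c, which encodes the cyclin-dependent kinase inhibitor p57, had 0.101 RPKM in Dnmt1-/-. Phlda2, a pleckstrin homology domain protein known to restrain growth of the placenta, had the highest level of the 4, at 0.251 RPKM. The transporter gene Slc22a18 had 0.0757 RPKM, and Kcnq1, the pore subunit of a voltage-gated potassium channel, had 0.0209. Their summed level was 0 in Dnmt1+/+ and 0.449 RPKM in Dnmt1-/-, and no fold is given against a library at 0. All 4 had status OK, so a 0 here is a listed value and not a failed estimate by that label.

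A 0 in Dnmt1+/+ with a value above 0 in Dnmt1-/- was found for 2.95% of the 14865 entries with status OK and a symbol, against 4 of the 9 genes of the domain with that status. The 2 shares are unlike in level, since 11244 of the 14865 entries reached 1 RPKM in a library and none of these 4 genes did. The pattern is open mainly to low entries, so 2.95% is too low a base for these 4 genes. A share among entries under 1 RPKM alone was not computed, and the contrast is not a result about the domain. The opposite pattern made up 2.09% of the entries and a 0 in both libraries 3.98%, and neither was found among the 9. At shares this small, 9 genes are too few for their absence to be informative. The 438 entries with the first pattern had a median of 0.156 RPKM in Dnmt1-/- and an upper quartile of 0.749, and 86 of them reached 1 RPKM. Phlda2 lay above 57.3% of these entries and Cdkn1c above 40.9%, Slc22a18 above 34.0% and Kcnq1 above 14.6%. The inner genes thus lay within the range below the upper quartile, and all were far below H19, which has the same pattern.

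Ascl2, the outermost gene on the side of H19, encodes a basic helix-loop-helix factor needed for the spongiotrophoblast of the placenta. Its level was a listed 0 in Dnmt1+/+ MEFs and 0.00921 RPKM in Dnmt1-/- MEFs, with status NOTEST, which Cuffdiff gives to entries with too few reads to test. Trophoblast markers were also near 0. Of 9 listed markers 8 had an entry, with a summed level of 0.357 RPKM in Dnmt1+/+ and 0.104 in Dnmt1-/-, and Elf5, Gcm1, Tpbpa, Prl3b1 and Hand1 were listed at 0 in both.

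The other 4 outer genes were expressed in both libraries. Cd81, a tetraspanin of the cell surface, was the highest of the domain, at 94.9 RPKM in Dnmt1+/+ and 97.9 in Dnmt1-/- MEFs, and its log2 change was 0.04. Nap1l4, a nucleosome assembly protein that carries histones, had 47.7 and 52.2 RPKM, a change of 0.13. Tssc4, which takes part in the assembly of a spliceosomal particle, had 8.15 and 9.65 RPKM, a change of 0.24. Osbpl5, an oxysterol-binding protein relative that moves lipids between membranes, had 8.29 and 13.2 RPKM, and its change of 0.67 was the largest of the 4.

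All 4 were higher in Dnmt1-/-, by 1.03-fold to 1.59-fold, and none was past 2-fold in either direction. The background was the 11244 genes that had status OK, a symbol and a level of 1 RPKM or more in at least 1 library. Of these 8.47% passed 2-fold upwards and 10.9% downwards, 19.4% in all. The 4 genes met this minimum in both libraries, and the other 6 genes of the domain met it in neither. Their median log2 change was 0.19, and that of the 11244 genes was -0.14, with quartiles of -0.56 and 0.27. Osbpl5 lay above 87.6% of the 11244 changes and Cd81 above 62.2%. Relative to the median of all genes the change of Osbpl5 was 0.81 and that of Cd81 0.18. Without replicates it cannot be said whether differences of this size exceed the spread between libraries of one genotype.

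**Figure D2:**
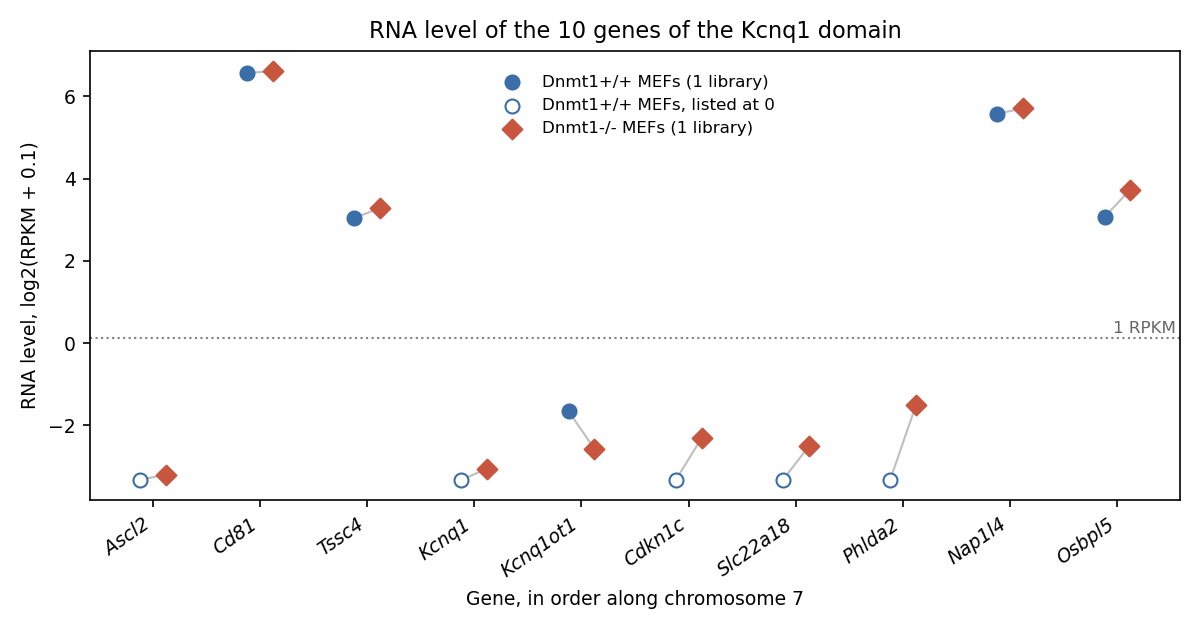
RNA level of the 10 genes, as log2(RPKM + 0.1), in order along chromosome 7, with circles for the Dnmt1+/+ library (open where listed at 0) and diamonds for the Dnmt1-/- library; there is 1 library of each, so no error bars are drawn. Cd81, Tssc4, Nap1l4 and Osbpl5 lie above the dotted line at 1 RPKM in both libraries, and the other 6 genes lie below it in both.

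**Figure D3:**
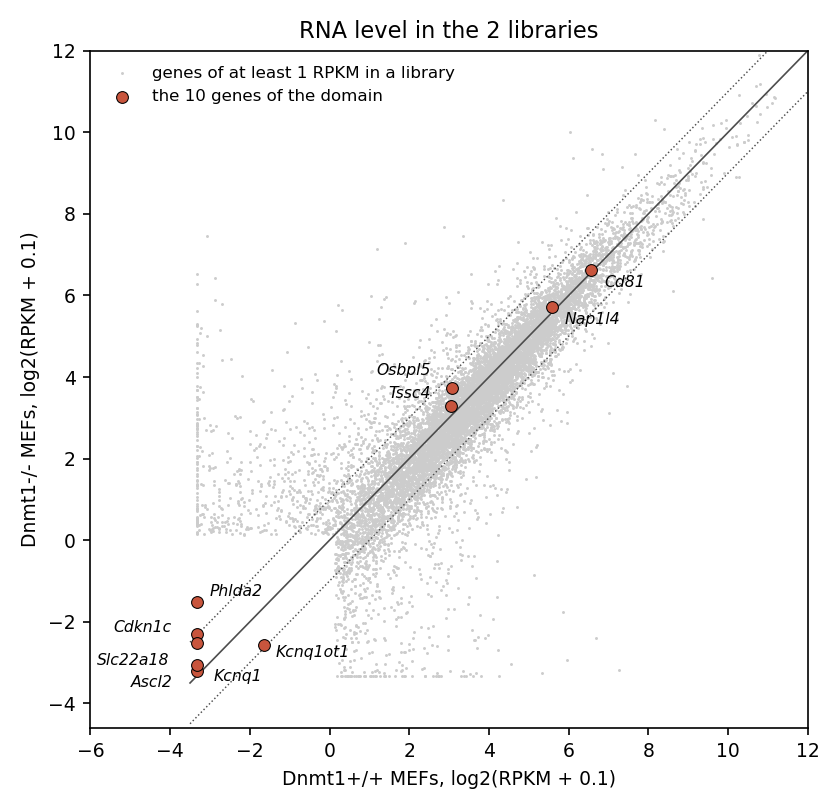
RNA level in Dnmt1-/- MEFs (vertical axis) against Dnmt1+/+ MEFs (horizontal axis), both as log2(RPKM + 0.1), for the 11244 genes of at least 1 RPKM in a library (grey) and the 10 genes of the domain (red); the solid line marks equal values and the dotted lines a 2-fold difference on this scale. The 4 expressed genes lie just above the solid line between the dotted ones, and the others gather in the lower left corner.

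By position, near-0 and expressed genes took turns along the domain. Ascl2, whose start lies 327.3 kb from that of Kcnq1ot1, was near 0. Cd81 and Tssc4, whose starts lie 243.8 and 227.3 kb from that of Kcnq1ot1 on its centromeric side, were expressed, and Kcnq1 at 189.3 kb was not. On the other side Cdkn1c, Slc22a18 and Phlda2, at 164.5, 177.2 and 206.0 kb, were near 0, and Nap1l4 at 252.5 kb and Osbpl5 at 460.4 kb were expressed. The distance of Osbpl5 is that of its gene model, which starts upstream of the entry measured. Of the 10 genes, those that start within 206.0 kb of Kcnq1ot1 on either side were thus the 4 inner genes, all under 1 RPKM in both libraries. Low levels were not confined to them. Ascl2 and the neighbours Tspan32, at 291.5 kb, and Trpm5, at 201.9 kb, were also under 1 RPKM in both libraries, on the side of Cd81 and Tssc4.

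The same interval holds 6 further entries with a symbol that are not among the 10 genes. Tnfrsf26, a receptor gene of the tumour necrosis factor receptor family, was at 0.0241 RPKM in Dnmt1+/+ and 6.93 in Dnmt1-/- MEFs, and its log2 change was 5.82. The joint entry of Tnfrsf22 and Tnfrsf23, decoy receptors of the same family next to it, was at 2.18 and 5.53 RPKM, a change of 1.31. As these genes are close paralogs, reads could be shared between them. Both entries lie between Cars and Osbpl5. Cars, which encodes cysteinyl-tRNA synthetase and lies next to Nap1l4, was at 58.8 and 33.6 RPKM, a change of -0.81.

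On the Ascl2 side, Tspan32, a tetraspanin gene known from blood cells, was at 0.0994 and 0.441 RPKM, and Trpm5, a channel gene known from taste cells, at 0.00762 and 0.0167 RPKM. Both stayed under 1 RPKM. R74862, annotated as a lincRNA on the strand opposite to Cd81, was at 1.13 RPKM in Dnmt1+/+ and 0.322 in Dnmt1-/-. Its exons share 30 bases with those of Cd81, and both have the same locus in the table, so its value is uncertain. Of the 4 neighbours that reached 1 RPKM, 2 passed 2-fold upwards and 1 downwards, beside 8.47% and 10.9% of all genes kept. The map of changes by distance shows the 2 receptor entries apart from the 10 genes around them.

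**Figure D4:**
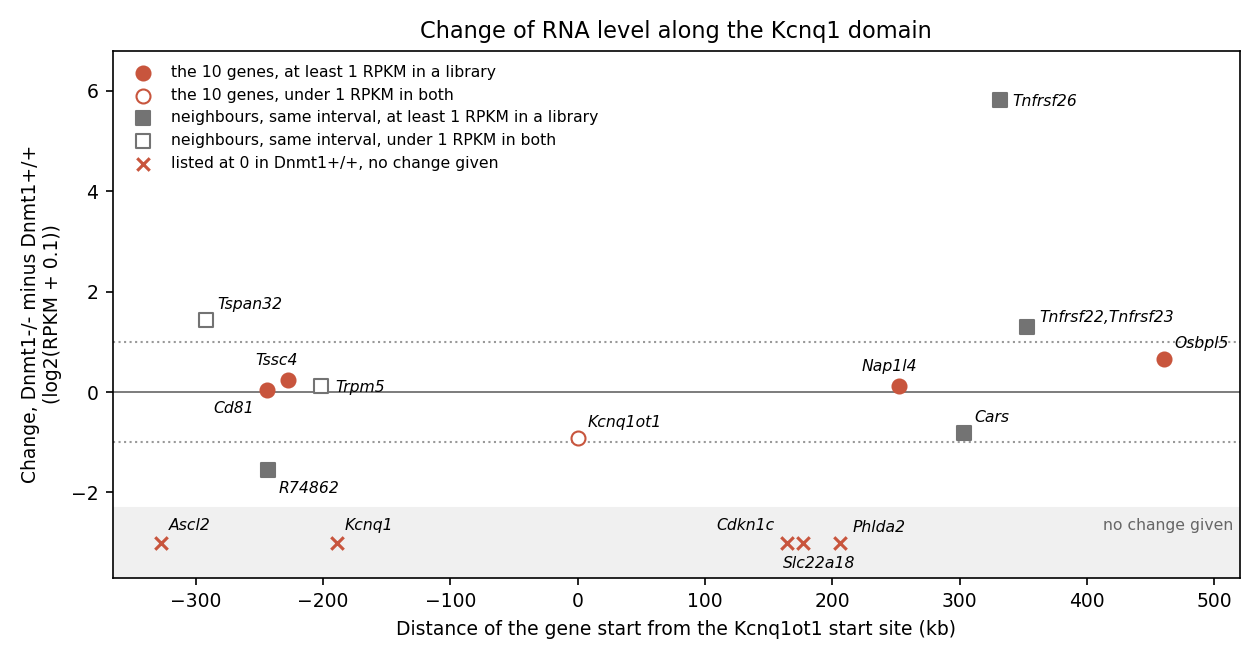
Change of RNA level, Dnmt1-/- minus Dnmt1+/+ on the log2(RPKM + 0.1) scale (vertical axis), against the distance of each gene's start from that of Kcnq1ot1 in kb (horizontal axis); circles are the 10 genes, squares their neighbours, open symbols are under 1 RPKM in both libraries, and crosses in the grey band mark genes listed at 0 in Dnmt1+/+, whose height there has no meaning. Tnfrsf26, at 5.82, stands far above the 10 genes, whose changes lie between -0.91 and 0.67 where one is given. Osbpl5 is placed at the start of its gene model, upstream of the entry measured.

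Within 500 kb outside the interval lay 16 further entries with a symbol, 11 before Ascl2 and 5 after Osbpl5. Before Ascl2, Igf2, a growth factor gene that shares a separate imprinting control with H19, was at 18.5 and 0.0544 RPKM, and Mrpl23, a mitochondrial ribosomal protein gene beyond H19, was at 3.70 and 3.68. After Osbpl5, Nadsyn1, an enzyme of NAD synthesis, was at 2.94 and 2.79 RPKM. Dhcr7, the last enzyme of cholesterol synthesis, was at 9.26 RPKM in Dnmt1+/+ and 2.11-fold lower in Dnmt1-/-, and Shank2, a scaffold protein gene, at 0.629 and 2.21. Of the 22 neighbours in and around the domain, 10 met the minimum of 1 RPKM, with 4 past 2-fold upwards and 3 downwards, beside 8.47% and 10.9% of all genes kept. Of these 7, R74862, Dhcr7 and Shank2 were under 2-fold with a pseudocount of 1.

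Factors known to guard the imprint or to take part in silencing by Kcnq1ot1 were expressed in both libraries. All 12 on the list had at least 10.8 RPKM in each library. None was more than 2-fold higher and 1 was more than 2-fold lower, beside 8.47% and 10.9% of all genes kept. The lower one was Dnmt1, at 65.2 RPKM in Dnmt1+/+ and 14.5 in Dnmt1-/-. Zfp57, a zinc finger protein that protects methylation at imprinting control regions, was at 10.8 RPKM in Dnmt1-/- and 1.75-fold higher in Dnmt1+/+, and its partner Trim28 was at 93.6 RPKM in Dnmt1+/+ and 75.2 in Dnmt1-/-. The H3K9 methyltransferase genes Ehmt1 and Ehmt2 were at 18.3 and 76.9 RPKM in Dnmt1+/+ and at 11.7 and 61.1 in Dnmt1-/-. The Polycomb genes Ezh2, Eed, Suz12 and Rnf2 had log2 changes between -0.47 and -0.08, and relative to the median of all genes Eed, at 0.06, was on the other side of 0. Uhrf1, which brings Dnmt1 to hemimethylated DNA, was at 49.2 and 55.1 RPKM, the insulator protein gene Ctcf at 32.8 and 41.6, and Hnrnpk, whose product binds RNA and bridges it to Polycomb, at 169.1 and 145.4. The median log2 change of the 12 was -0.27.

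Relatives of Cdkn1c and Phlda2 were expressed, and the listed partners of Kcnq1 were not. Cdkn1b, which encodes p27, was at 36.7 RPKM in Dnmt1+/+ and 26.9 in Dnmt1-/- MEFs, and Cdkn1a, which encodes p21, at 8.61 and 1.41, whereas Cdkn1c of the same family was near 0 in both. Phlda1 was at 18.5 and 77.9 RPKM and Phlda3 at 20.3 and 36.1, far above Phlda2. Kcne1, Kcne2, Kcne3 and Kcne4, accessory subunits of the Kcnq1 channel, had at most 0.0768 RPKM in either library, so channel and partners were low together. Nap1l1, a relative of Nap1l4, was at 206.2 and 123.6 RPKM. The tetraspanin genes Cd9 and Cd82 were at 49.6 and 36.7 RPKM in Dnmt1+/+ and at 101.5 and 24.7 in Dnmt1-/-. Of the 11 relatives listed, 7 met the minimum of 1 RPKM, with 2 past 2-fold upwards (Phlda1 and Cd9) and 1 downwards (Cdkn1a). The shares of all genes kept were 8.47% upwards and 10.9% downwards.

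Of 11 fibroblast markers, 10 met the minimum of 1 RPKM, with Vim at 2269 and 1873 RPKM, and Lum was near 0. In Dnmt1-/- MEFs 2 of the 10 (Pdgfra and S100a4) were past 2-fold upwards and 3 (Col1a2, Thy1 and Fn1) downwards, beside 8.47% and 10.9% of all genes kept. Their part in the values of the domain was not tested, and fewer cells that express a gene cannot be told apart from less RNA per cell. None of 3 muscle markers reached 1 RPKM. Of 5 epithelial markers 1 did, the joint entry of Krt14 and Krt17, and of 3 blood markers 2 had an entry and 1, Cd68, reached it, at 0.596 and 3.63 RPKM. Trp53 was listed at 18.6 and 19.9 RPKM, which does not check the null allele, as RNA can be read from an allele that gives no protein.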

How the data were processed

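The mRNA from MEFs of each genotype was sequenced, strand-specific, from a single end to 50 bp. The authors aligned the reads to mm9 with TopHat, built transcripts with Cufflinks and deposited the RPKM that Cuffdiff computed, 1 column per library, with a status per entry. Program versions, and any scaling of the libraries beyond mapped reads, are not given in the sources used here. The column names mark wild-type and knock-out, which the study uses for Dnmt1+/+ and Dnmt1-/-. The study reports the mapped reads of each library, but RPKM carry no read counts. The number of reads behind each value was not derived here, and no interval or detection limit is given.

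The change of a gene is the Dnmt1-/- minus the Dnmt1+/+ value of log2(RPKM + 0.1), computed here. Counts of changed genes required status OK, a gene symbol and at least 1 RPKM in one library or the other, and a change past 2-fold. Starts in the file count from 0 and are given here from 1. The mm9 gene models were GENCODE (vM1), which holds no model of Kcnq1ot1. The counts were tested on simulated data drawn from genes that met this minimum, which checks neither the low values nor the real spread between libraries. The genes named are the 10 genes of the domain, every symbol within 500 kb of them, and lists of silencing factors, relatives, noncoding RNAs and cell type markers. Members and lists were chosen with earlier results of these data known. Pseudocounts of 1 and 0.01, centring, other filters, any status, a 1.5-fold threshold and entries without a symbol were tried as alternatives. Python 3.11.15, numpy 2.4.6, pandas 2.3.3 and matplotlib 3.10.9 were used.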

Additional observations from a re-analysis of the deposited data

Results flagged for a closer look

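Entries without a gene symbol were not part of the comparison of named genes, and 4 of them lie in the interval from Ascl2 to Osbpl5. They are listed here where the Dnmt1-/- level was more than 2-fold above the Dnmt1+/+ level. Entry XLOC_024598, 98 bp long from 150209069 to 150209166, was at 25.2 RPKM in Dnmt1+/+ and 115.2 in Dnmt1-/- MEFs. It overlaps an exon of R74862, as does a neighbouring entry of 223 bp (150208564 to 150208786), which was at 10.3 and 0.942 RPKM, the opposite direction. With reads of 50 bp the RPKM of entries this short are uncertain, and R74862 itself was at 1.13 and 0.322 RPKM. Entry XLOC_024600, 256 bp long from 150813878 to 150814133, went from a listed 0 to 3.03 RPKM. It overlaps no gene model and lies just before the start of Tnfrsf26. The remaining entry, of 365 bp between Nap1l4 and Cars, was at 1.43 and 2.61 RPKM.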

How the results depend on the processing

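No paired analysis was possible because there is 1 library per genotype, and no replicate could be left out. No median change is given for the inner genes, which were listed at 0 in Dnmt1+/+ MEFs. The count of 0 genes of the domain more than 2-fold higher became 2 without the filter on low RPKM (Cdkn1c and Phlda2, whose change then rests on the pseudocount), 1 at a 1.5-fold threshold (Osbpl5), and 2 when the interval's entries without a symbol, which are not among the 10 genes, were counted too. That last setting also gave 1 lower, against 0 otherwise. The change of Kcnq1ot1 was negative under each alternative that gave it a value and its size varied, being -0.91 as reported, a size past 1.5-fold that is not counted among the lower genes because Kcnq1ot1 is under 1 RPKM, -0.19 with a pseudocount of 1, -1.53 with 0.01 and -1.66 as a plain log2 ratio, an alternative chosen after seeing the data. The median change of 0.19 for the genes kept, which are all outer genes, was 0.33 after the median of all genes was subtracted. Of all genes kept, the share lower was 7.12% with a pseudocount of 1, and at 1.5-fold 14.1% were higher and 23.7% lower. After centring, 9.71% of all genes were more than 2-fold higher and 8.58% lower. R74862, Dhcr7 and Shank2 fell under 2-fold with a pseudocount of 1, and Dhcr7 also after centring, whereas Tnfrsf26 and the joint entry of Tnfrsf22 and Tnfrsf23 stayed more than 2-fold higher with both other pseudocounts and after centring.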
